A study of Homo sapiens with 18 samples.

Results

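NEAT1 and MALAT1 are long noncoding RNAs that stay in the nucleus, and SFPQ, NONO, PSPC1, RBM14 and MATR3 are nuclear RNA-binding proteins that assemble on NEAT1 or share its compartments. These 7 genes were taken by symbol from a table of 44016 features, no measured value entering the choice rule, and all 7 passed the filter on low counts. Messenger RNA was sequenced from A549, a human cell line derived from a lung adenocarcinoma, in 6 groups with n = 3 libraries each, which the series' design text calls biological replicates. The groups were a stable knockdown (KD) of S100A16 given 100 µM hydrogen peroxide (H2O2) for 2 h, the same S100A16 KD untreated, a stable hnRNPM KD untreated, a stable MagoHB KD untreated, wild-type (WT) cells given 100 µM H2O2 for 2 h, and WT cells untreated. S100A16 is a calcium-binding protein, hnRNPM a splicing regulator and MagoHB a subunit of the exon junction complex. The title of the series names alternative splicing mediated by S100A16 under oxidative stress. Every control was a WT culture, with no vector-only line among the groups, and the sources used here state neither the KD method nor the number of clones behind each line.

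Paraspeckles are nuclear bodies built on the long form of NEAT1. SFPQ and NONO, which pair with each other and with PSPC1 as members of one protein family, coat the middle of the long NEAT1 transcript and are needed to keep it, and RBM14 is needed to assemble the body. The short form of NEAT1 starts at the same site, stops at an early poly(A) signal and carries a poly(A) tail. The long form and MALAT1, which resides in neighbouring nuclear speckles, instead end in an A-rich tract encoded in the genome, which folds with U-rich motifs into a triple helix. RNase P cuts just behind that tract and frees a tRNA-like small RNA, called mascRNA for MALAT1 and menRNA for NEAT1. The libraries were enriched for poly(A) with oligo(dT) beads, which can take up the A-rich tract as well as a true tail.

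The ends by which the beads can hold these transcripts are shown here, from the GENCODE 29 transcripts on GRCh38, plus strand of chromosome 11, since they bear on how the levels of NEAT1 and MALAT1 were captured. In the 3′ ends, of 100 bases each, capitals mark the U-rich motifs and the A-rich tract; the MALAT1 stretch is chr11:65506017-65506116 and that of long NEAT1 is chr11:65445441-65445540. In the stretch around the end of short NEAT1, chr11:65426443-65426542, capitals mark the poly(A) signal, which lies 3706 bases into the GENCODE 29 transcript of long NEAT1. That transcript starts at base 65422798, inside the longer span that the count table gives NEAT1.
MALAT1 3′ end: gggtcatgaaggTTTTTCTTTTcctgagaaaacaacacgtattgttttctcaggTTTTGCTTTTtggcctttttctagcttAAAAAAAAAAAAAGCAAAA
long NEAT1 3′ end: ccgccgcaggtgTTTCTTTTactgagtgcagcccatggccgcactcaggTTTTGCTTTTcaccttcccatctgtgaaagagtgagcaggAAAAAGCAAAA
short NEAT1 poly(A) signal: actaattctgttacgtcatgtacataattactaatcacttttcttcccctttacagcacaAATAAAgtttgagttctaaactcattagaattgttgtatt
Both 3′ ends finish in GCAAAA, which a run of 13 A precedes in MALAT1 and a run of 5 A in NEAT1. The gene counts do not separate short from long NEAT1, because the short form lies wholly within the long one.

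In the count table on GRCh38, NEAT1 spans chr11:65422774-65445540 as 1 exon stretch of 22767 bases and MALAT1 spans chr11:65497762-65506516, 8755 bases, both on the plus strand, with 52.2 kb between them. The others are protein-coding. SFPQ lies at chr1:35176378-35193148 on the minus strand, NONO at chrX:71283192-71301168 on the plus strand and PSPC1 at chr13:19674752-19783019 on the minus strand. RBM14 lies at chr11:66616582-66627347 and MATR3 at chr5:139273752-139331677, both on the plus strand. Values are CPM, read counts scaled to library size with the trimmed mean of M-values (TMM), tests are edgeR's quasi-likelihood F test with Benjamini-Hochberg adjustment over 22382 genes, and a gene was called where its adjusted p was under 0.05. Per kilobase, in the authors' deposited RPKM for untreated WT cells, NONO was highest at 442 ± 4.96 RPKM, followed by SFPQ at 221 ± 2.29, MALAT1 at 169 ± 12.5, NEAT1 at 84.4 ± 3.94, MATR3 at 46.1 ± 0.84, PSPC1 at 42.6 ± 0.51 and RBM14 at 4.30 ± 0.16 RPKM (SD, n = 3 each). NEAT1 was divided there by the length of its long form. For RNA of the short form that length is too great, which understates the value per kilobase.

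Library totals ranged from 36612997 to 51406431 counts. Each targeted mRNA was lower in its own KD, with S100A16 at 7.11% of untreated WT, HNRNPM at 20.8% and MAGOHB at 34.8%. Targets of the other KDs were lower in several cases too. In untreated S100A16 KD cells HNRNPM was at 67.5% of WT (adjusted p = 0.000911) and MAGOHB at 65.0% (adjusted p = 0.00122). hnRNPM KD cells had MAGOHB at 44.4% of WT, and MagoHB KD cells had S100A16 at 51.2% and HNRNPM at 80.4% (adjusted p = 0.0458), whereas S100A16 was not called in hnRNPM KD cells. Of 8 A549 and epithelial markers, KRT8, KRT18 and AKR1B10 had medians of 4415, 1573 and 2238 CPM over the 18 libraries, KRT7, AKR1C1 and CDH1 of 497, 455 and 51.7 CPM, and EPCAM and KRT19 only 5.29 and 0.857 CPM. Among markers of other cells, PTPRC, CD3E, DCN, PECAM1, CDH5 and VWF stayed at or below 0.55 CPM in every library. CD68 had a median of 104 CPM, and the fibroblast markers COL1A1 and COL3A1 had medians of 26.7 and 10.3 CPM. Some sums differed between whole groups. The 8 epithelial markers together had 11262 to 11851 CPM in the S100A16 KD given H2O2, 10079 to 10597 untreated, 7957 to 8204 in the hnRNPM KD and 6370 to 6719 in the MagoHB KD, against 8543 to 9899 CPM in the WT groups. Mitochondrial genes took 7.45% to 7.86% of counts in the S100A16 KD groups, 9.60% to 10.6% in the hnRNPM KD and 7.26% to 7.51% in the MagoHB KD, against 9.22% to 10.3% in the WT groups. Replication-dependent histones summed to 37.7 to 43.3 CPM in the hnRNPM KD, 27.4 to 33.9 CPM in the MagoHB KD and 18.7 to 24.1 CPM in untreated S100A16 KD cells, against 19.3 to 22.1 CPM in untreated WT cells. Most of that histone sum was 1 gene, HIST1H1C, with a median of 17.6 CPM over the 18 libraries. HIST1H4H had a median of 2.92 CPM and the other histones of 0.503 CPM or less. The part of these differences between groups in the results was not tested. From their groups, 3 libraries stood apart. Library 1 of the untreated S100A16 KD held 497 CPM of RNAs without a poly(A) tail (RN7SK, RN7SL1 and others), against 34.2 to 65.0 CPM in every other library. Library 3 of the hnRNPM KD and library 2 of the MagoHB KD each had the highest MALAT1 and the lowest SFPQ, NONO, PSPC1 and MATR3 of their group. Over the genes tested, counts were compared between libraries of the same group by chi-square per degree of freedom. It was 28.2 to 62.4 in pairs with any of these 3 libraries and 3.01 to 5.32 in every other pair. Since the description above uses levels of the genes studied, their calls in fits without the 3 libraries are not independent support. Without TMM, scaling by total counts moved the median log2 fold change of all genes by 0.24 (S100A16 KD untreated), 0.18 (S100A16 KD under H2O2), 0.11 (hnRNPM KD) and 0.21 (MagoHB KD), and the changes below are relative to the TMM scale.

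The S100A16 KD moved all 7 genes against untreated WT, 6 downward and 1, MALAT1, upward. In that comparison 52.3% of all genes tested were called, 24.8% of them lower and 27.6% higher as shares of the genes tested, so being called was common and the excess lay in the downward direction. Under H2O2 the S100A16 KD called 4 of the 7 against WT given H2O2, with MALAT1 higher and NEAT1, PSPC1 and RBM14 lower, beside 52.5% of all genes, 27.9% higher and 24.7% lower. The hnRNPM KD called 3 of 7, NEAT1 higher and NONO and PSPC1 lower, beside 49.1% of all genes, 25.4% higher and 23.8% lower. The MagoHB KD also called 3 of 7, RBM14 higher and SFPQ and MALAT1 lower, beside 45.5% of all genes, 23.3% higher and 22.3% lower. Apart from the untreated S100A16 KD, these shares of called genes were near those of all genes. Scaled by total counts, 1 of the 7 was higher and 3 lower in untreated S100A16 KD cells, 3 and 2 in the hnRNPM KD and 5 and 0 in the MagoHB KD. All genes shifted upward with them, to 41.1% higher and 14.4% lower, 31.5% and 18.4%, and 36.7% and 12.5% under that scaling. These 3 KD comparisons share the untreated WT libraries, so their values are given side by side and not as independent observations. In bulk libraries, fewer cells that express a gene and less RNA per cell cannot be told apart.

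**Figure D1:**
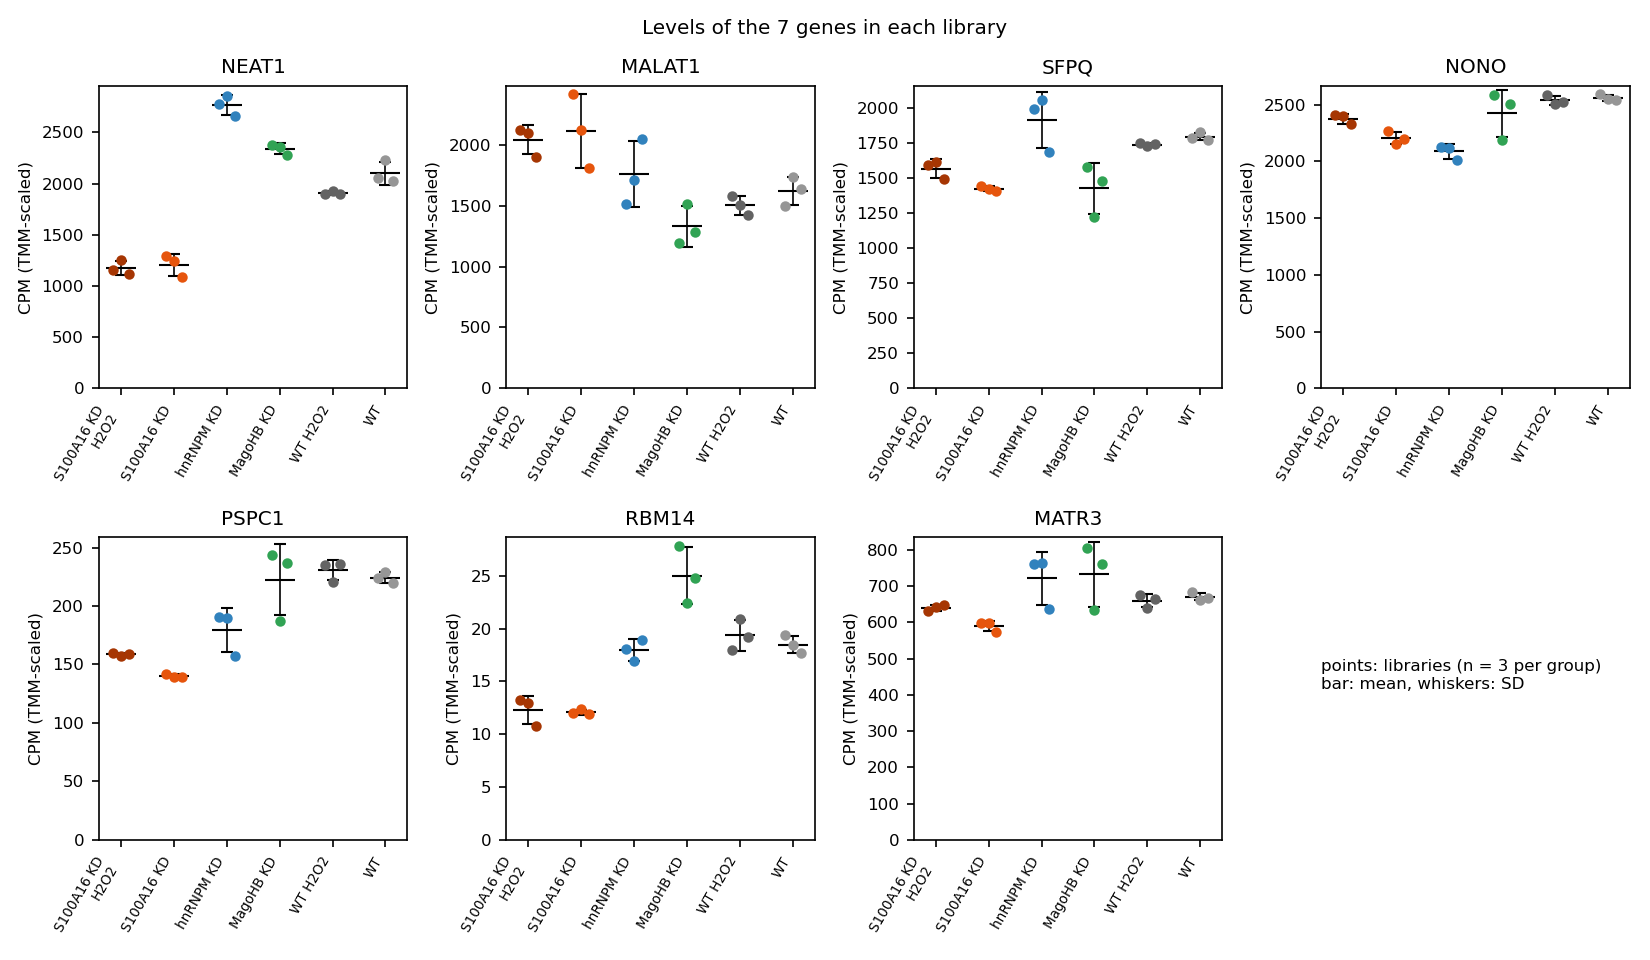
Level of each gene in every library, in CPM scaled by TMM, with 1 panel per gene, points for the 3 libraries of each group and a bar with whiskers for the mean and SD. NEAT1 is lowest in both S100A16 KD groups (1084 to 1294 CPM) and highest in the hnRNPM KD (2658 to 2855 CPM), while MALAT1 is highest in the S100A16 KD groups.

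NEAT1, the scaffold of the paraspeckle, had the widest range between groups of the 7 genes, 2.35-fold from the lowest to the highest group mean. Its levels were 1294, 1241 and 1084 CPM in untreated S100A16 KD cells, 2782, 2855 and 2658 CPM in the hnRNPM KD and 2382, 2358 and 2284 CPM in the MagoHB KD, against 2052, 2232 and 2024 CPM in untreated WT cells. Every S100A16 KD library lay below every WT library, and every library of the other KDs lay above them. NEAT1 fell to 57.4% of WT in the S100A16 KD (log2 fold change -0.80 ± 0.06 SE, adjusted p = 1.17e-09). It rose 1.31-fold in the hnRNPM KD (0.39 ± 0.06, adjusted p = 2.66e-05). In the MagoHB KD the fold was 1.11 and missed the threshold (0.15 ± 0.06, adjusted p = 0.0552). It was called in 6 of 13 alternatives, among them halved counts (0.16, adjusted p = 0.0383) and no filter beyond 1 count (0.16, adjusted p = 0.0344), and ranged from 0.12 to 0.19 when libraries were left out in turn.

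Under H2O2, NEAT1 had 1155, 1251 and 1119 CPM in the S100A16 KD, against 1897, 1929 and 1900 CPM in WT cells. The S100A16 KD libraries were again all lower, at 61.6% of WT given H2O2 (-0.70 ± 0.06, adjusted p = 9.3e-09). Between the KDs, NEAT1 was lower in the S100A16 KD than in the hnRNPM KD (log2 fold change -1.20, adjusted p = 1.07e-12) and than in the MagoHB KD (-0.96, adjusted p = 4.66e-11), and it was higher in the hnRNPM KD than in the MagoHB KD (0.24, adjusted p = 0.00412). In order of group means, only the neighbours S100A16 KD given H2O2 and S100A16 KD untreated overlapped, and every later step, through WT given H2O2, WT untreated and the MagoHB KD to the hnRNPM KD, separated all 3 libraries from the 3 before them. The direction of each NEAT1 change called held under scaling by total counts, at -0.57 in the S100A16 KD and 0.51 in the hnRNPM KD.

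MALAT1, which associates with splicing factors in nuclear speckles, went the other way from NEAT1 in the S100A16 KD. It had 2419, 2123 and 1810 CPM in untreated S100A16 KD cells, 1511, 1715 and 2049 CPM in the hnRNPM KD and 1196, 1517 and 1281 CPM in the MagoHB KD, against 1498, 1734 and 1634 CPM in untreated WT cells. All S100A16 KD libraries exceeded all WT libraries, whereas the other KDs overlapped WT. MALAT1 rose 1.31-fold in the S100A16 KD (log2 fold change 0.38 ± 0.11 SE, adjusted p = 0.00875). This call was lost without library 1 of the S100A16 KD, the one rich in RNAs without a tail (0.28, adjusted p = 0.055), without library 1 of WT (0.31, adjusted p = 0.053) and in a fit to these groups alone (0.37, adjusted p = 0.075). Of 5 RNAs without a tail that were tested, 4 were called higher in this untreated comparison and 0 under H2O2. Without all 3 libraries that stood apart MALAT1 was called (0.26, adjusted p = 0.0319), at a smaller difference than without library 1 of the S100A16 KD alone. Only that library of the 3 is in this comparison, and the spread was estimated from fewer libraries. The part of RNA capture in this result was not tested.

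Under H2O2, RNAs without a tail were at 34.2 to 39.3 CPM in the S100A16 KD, against 65.0, 42.5 and 41.0 CPM in WT libraries 1 to 3. MALAT1 had 2127, 2097 and 1905 CPM in the S100A16 KD, against 1579, 1510 and 1424 CPM in WT cells. The groups did not overlap, and MALAT1 was 1.36-fold higher in the S100A16 KD (0.44 ± 0.11, adjusted p = 0.00343), also without library 1 of WT given H2O2 (0.46, adjusted p = 0.00807). In the hnRNPM KD its difference of 0.12 ± 0.11 was not called (adjusted p = 0.427). In the MagoHB KD it was called lower at the edge of the threshold, at 82.0% of WT (-0.29 ± 0.11, adjusted p = 0.0494) with overlapping libraries. That call was lost in 9 of 13 alternatives, among them 4 of 6 fits that left a library out (adjusted p of up to 0.168) and total counts (-0.07, adjusted p = 0.67), over an adjusted p range of 0.00527 to 0.67.

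The ratio of NEAT1 to MALAT1 counts within a library needs no scaling between libraries. It was 0.543, 0.597 and 0.587 in the S100A16 KD given H2O2 and 0.535, 0.584 and 0.599 in untreated S100A16 KD cells. The corresponding WT ratios were 1.20, 1.28 and 1.33 under H2O2 and 1.37, 1.29 and 1.24 untreated. No library of the S100A16 KD came near the WT range. Over both treatments, relabelled within each, the log2 difference was -1.16 (exact permutation test, two-sided, p = 0.005, the smallest that 400 relabellings allow; adjusted p = 0.035 over 21 ratio tests), and it was -1.18 to -1.14 when any of the 12 libraries was left out. In the MagoHB KD the ratio was 1.99, 1.55 and 1.78, all above the untreated WT values, and in the hnRNPM KD it was 1.84, 1.67 and 1.30, which overlapped WT. With 3 libraries against 3, an exact test of these differences cannot go below p = 0.1, and it gave p = 0.1 for the MagoHB KD and p = 0.2 for the hnRNPM KD.

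**Figure D2:**
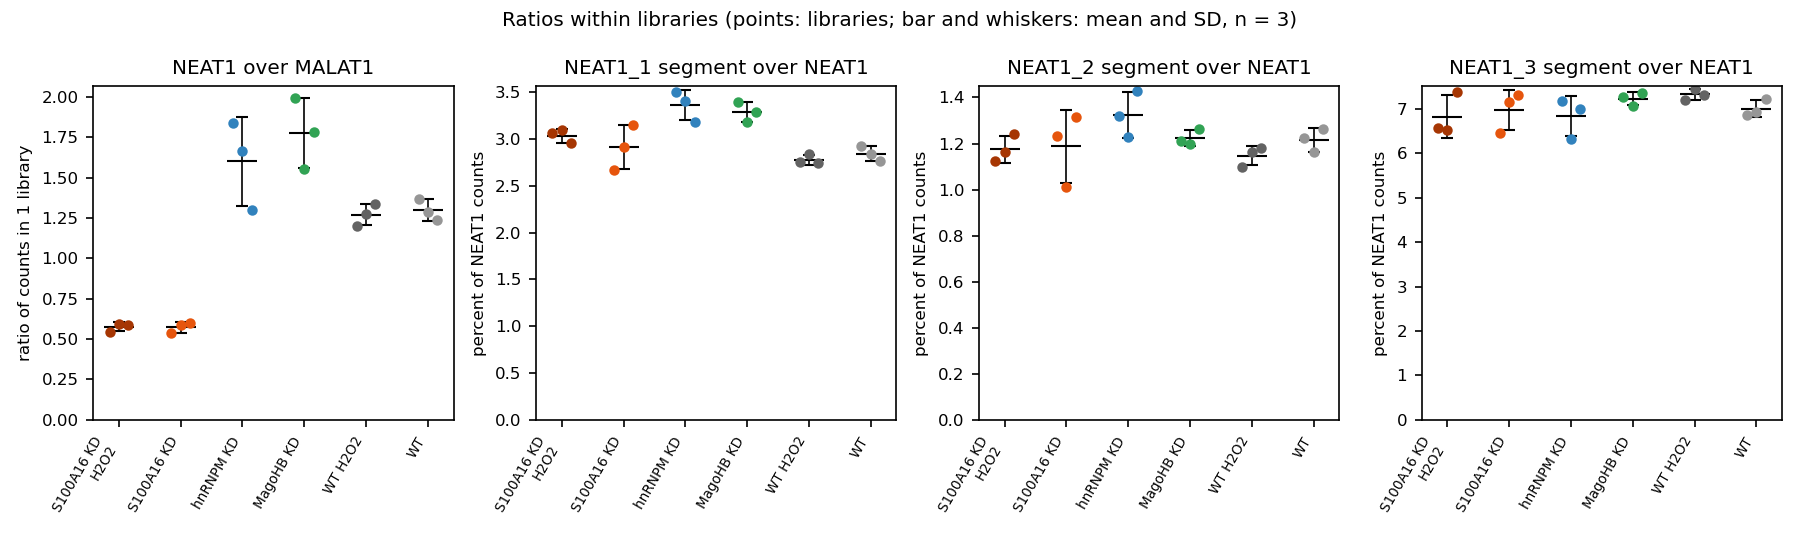
Ratio of NEAT1 to MALAT1 counts in every library (left) and the counts of the NEAT1_1, NEAT1_2 and NEAT1_3 segments as a percent of NEAT1 counts (right panels), with points for libraries and bars for mean and SD (n = 3). The ratio is 0.535 to 0.599 in the S100A16 KD groups and 1.20 to 1.37 in the WT groups, and the NEAT1_1 share ranges from 2.67% to 3.50% over all libraries.

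The table also counts short features inside and around these RNAs. NEAT1_1, NEAT1_2 and NEAT1_3 are conserved segments near the NEAT1 start, not its isoforms, and all lie within the stretch that short and long NEAT1 share (chr11:65423273-65423392, chr11:65423638-65423742 and chr11:65423960-65424118). They followed NEAT1, with log2 fold changes of -0.77, -0.84 and -0.81 in untreated S100A16 KD cells and of 0.64, 0.52 and 0.36 in the hnRNPM KD, all called. NEAT1_1 was also called higher in the MagoHB KD (0.36, adjusted p = 0.000173), as was NEAT1_3 (0.20, adjusted p = 0.00748). As a share of NEAT1 counts, NEAT1_1 made up 3.36% ± 0.16 in hnRNPM KD cells and 3.28% ± 0.11 in MagoHB KD cells, against 2.84% ± 0.08 in untreated WT cells (SD, n = 3). Both KD groups lay above WT in every library, which in an exact permutation test of 3 against 3 gives the smallest possible p, 0.1.

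The feature mascRNA-menRNA pools the tRNA-like ends of MALAT1 and NEAT1, so it cannot be assigned to either. It had 1.87, 1.90 and 2.07 CPM in the MagoHB KD, against 3.76, 3.68 and 3.76 CPM in untreated WT cells. The MagoHB KD libraries were all lower (log2 fold change -0.94 ± 0.15 SE, adjusted p = 1.98e-05). Such small RNAs carry no poly(A) tail, and 2711 counts were assigned to the feature over all libraries. It was higher in the S100A16 KD than in WT cells under H2O2 (0.55, adjusted p = 0.00232), with no call in the untreated pair (0.14, adjusted p = 0.429). AP000769.1, an annotated antisense transcript inside MALAT1 (chr11:65502034-65503622), shifted with MALAT1, by 0.34 in untreated S100A16 KD cells (adjusted p = 0.0141) and by -0.35 in the MagoHB KD (adjusted p = 0.0148). No strand-marking step is described in the library protocol, so reads of AP000769.1 and of MALAT1 cannot be told apart.

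The 3 members of the protein family that coats NEAT1 were SFPQ, NONO and PSPC1. SFPQ, a splicing factor and transcriptional regulator, had 1440, 1422 and 1405 CPM in untreated S100A16 KD cells, 1995, 2056 and 1683 CPM in the hnRNPM KD and 1578, 1222 and 1479 CPM in the MagoHB KD, against 1786, 1826 and 1773 CPM in untreated WT cells. All libraries of the S100A16 and MagoHB KDs lay below WT, and those of the hnRNPM KD overlapped it. SFPQ fell to 79.2% of WT in the S100A16 KD (log2 fold change -0.34 ± 0.08 SE, adjusted p = 0.000965). Its MagoHB KD level was 79.5% of WT (-0.33 ± 0.08, adjusted p = 0.00138). Both calls were lost under total counts (-0.10, adjusted p = 0.185, and -0.13, adjusted p = 0.0957). In the hnRNPM KD its difference of 0.09 ± 0.08 was not called (adjusted p = 0.353). It was called in 2 of 13 alternatives, among them the fit without the 3 libraries that stood apart (0.17, adjusted p = 0.00026). That fit drops the hnRNPM KD library with the lowest SFPQ. Under H2O2 SFPQ was at -0.15 in the S100A16 KD relative to WT (adjusted p = 0.113), uncalled although its libraries did not overlap those of WT. It was called in 3 of 13 alternatives, among them the fit without those 3 libraries (-0.16, adjusted p = 8.96e-05). None of the 3 libraries is in this comparison, so that fit compared the same libraries, with the spread estimated from fewer libraries.

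NONO, the partner of SFPQ, changed least of the 7 between groups, with a 1.23-fold range of group means. It had 2265, 2155 and 2196 CPM in untreated S100A16 KD cells, 2130, 2119 and 2016 CPM in the hnRNPM KD and 2584, 2187 and 2502 CPM in the MagoHB KD, against 2591, 2546 and 2542 CPM in untreated WT cells. It was lowest in the hnRNPM KD, where every library lay below WT (81.6% of WT, log2 fold change -0.29 ± 0.06, adjusted p = 0.000215). It was also lower in the S100A16 KD (86.2% of WT, -0.21 ± 0.06, adjusted p = 0.00343), although under total counts that value was 0.022 (adjusted p = 0.689). Under H2O2 its S100A16 KD value of -0.10 was uncalled (adjusted p = 0.175). It was called in 2 of 13 alternatives, with adjusted p down to 0.00422. Among them was the fit without the 3 libraries that stood apart (-0.11, adjusted p = 0.00477), none of which is in this comparison. The MagoHB KD value of -0.08 was not called (adjusted p = 0.286) and turned to 0.13 under total counts. The SFPQ to NONO count ratio, which needs no scaling, was 0.937, 0.970 and 0.835 in hnRNPM KD cells, 0.611, 0.559 and 0.591 in MagoHB KD cells and 0.636, 0.660 and 0.640 in untreated S100A16 KD cells, against 0.689, 0.717 and 0.698 in untreated WT cells. These ratios separated all 3 KDs from untreated WT, upward in the hnRNPM KD and downward in the others. For the S100A16 KD over both treatments the log2 difference was -0.09 (exact permutation test, p = 0.005, adjusted p = 0.035), and the differences of 0.38 for the hnRNPM KD and -0.26 for the MagoHB KD each had an exact p of 0.1, the minimum.

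PSPC1, the least abundant of the family per kilobase, had the largest decrease of its 3 members in the S100A16 KD. It had 142, 139.7 and 139.6 CPM in untreated S100A16 KD cells, 191, 189 and 157 CPM in the hnRNPM KD and 243, 188 and 237 CPM in the MagoHB KD, against 224, 229 and 219.6 CPM in untreated WT cells. The S100A16 KD libraries formed a tight group far below WT. PSPC1 fell to 62.6% of WT in the S100A16 KD (log2 fold change -0.67 ± 0.08 SE, adjusted p = 3.37e-07). It also fell in the hnRNPM KD, where it was at 79.9% of WT (-0.32 ± 0.08, adjusted p = 0.00182). In the MagoHB KD it did not pass the test (-0.01 ± 0.08, adjusted p = 0.916). Under H2O2 it had 160.0, 157 and 159 CPM in the S100A16 KD, against 235, 221 and 236 CPM in WT cells, again with no overlap (-0.54 ± 0.08, adjusted p = 6.64e-06). PSPC1 counts were 6.37% ± 0.10 of NONO counts in untreated S100A16 KD cells and 6.68% ± 0.14 in the S100A16 KD given H2O2, against 9.09% ± 0.26 in WT given H2O2 and 8.77% ± 0.20 in untreated WT (SD, n = 3). That ratio differed by -0.45 on the log2 scale over both treatments (exact permutation test, p = 0.005, adjusted p = 0.035).

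RBM14, a coactivator with a prion-like domain that joins paraspeckle subcomplexes, was measured at 436 to 1264 counts per library. It had 12.0, 12.4 and 11.9 CPM in untreated S100A16 KD cells, 18.05, 16.9 and 18.97 CPM in the hnRNPM KD and 27.8, 22.4 and 24.8 CPM in the MagoHB KD, against 19.4, 18.4 and 17.7 CPM in untreated WT cells. The S100A16 KD lay wholly below WT and the MagoHB KD wholly above it. RBM14 fell to 65.4% of WT in the S100A16 KD (log2 fold change -0.61 ± 0.09 SE, adjusted p = 6.78e-06) and rose 1.35-fold in the MagoHB KD (0.43 ± 0.09, adjusted p = 0.000369). Under H2O2 the S100A16 KD had 13.2, 12.9 and 10.8 CPM, against 17.98, 20.9 and 19.2 CPM in WT cells (-0.65 ± 0.09, adjusted p = 3.19e-06). The RBM14-RBM4 readthrough feature shares 432 exon bases with RBM14 and held 75479 counts against 14005 for RBM14, so these levels depend on how shared reads were divided, which the sources used here do not state. The readthrough feature was at -0.21 in untreated S100A16 KD cells (adjusted p = 0.0065) and at -0.01 in the MagoHB KD (adjusted p = 0.884), where RBM14 itself was called higher.

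MATR3, a nuclear matrix protein that binds RNA and regulates splicing, had 598, 597 and 574 CPM in untreated S100A16 KD cells, 761, 765 and 638 CPM in the hnRNPM KD and 805, 633 and 760.4 CPM in the MagoHB KD, against 683, 662 and 668 CPM in untreated WT cells. The S100A16 KD libraries were all lower than WT, and the other KDs spread to both sides of it. The S100A16 KD call (87.9% of WT, log2 fold change -0.19 ± 0.07 SE, adjusted p = 0.0405) was the weakest of the set. It was lost in 5 of 6 fits that left a library out (adjusted p of up to 0.0835) and turned to 0.051 under total counts, whereas it held without the 3 libraries that stood apart (-0.22). Without library 2 of the MagoHB KD, MATR3 was called higher in that KD (0.22, adjusted p = 0.00448), and without library 3 of the hnRNPM KD it was called higher there (0.18, adjusted p = 0.0372). Both were uncalled with all libraries (0.13 and 0.10), and each library left out had the lowest MATR3 of its group. SNHG4 shares 555 exon bases with MATR3 and SIL1, on the other strand, shares 105, so their reads can overlap with those of MATR3.

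**Figure D3:**
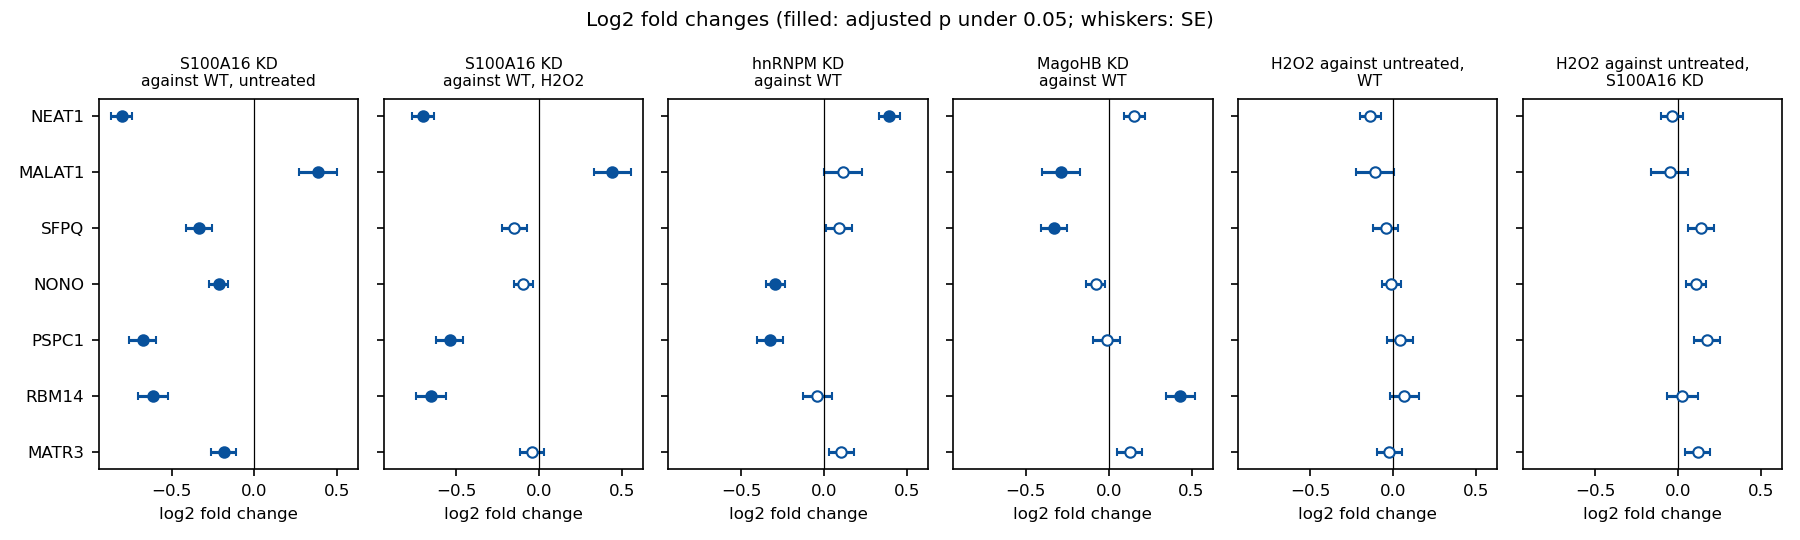
Log2 fold change with its standard error for each gene in 6 comparisons, with filled points for an adjusted p under 0.05. NEAT1 is at -0.80 and MALAT1 at 0.38 in untreated S100A16 KD cells, and no point is filled for H2O2 in WT cells or in the S100A16 KD.

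The treatment itself moved none of the 7 genes past the threshold. H2O2 in WT cells called 0 of 7 beside 0.223% of all genes, with 1 of 7, NEAT1, at an unadjusted p under 0.05, and DESeq2 also called 0. NEAT1 was lower in every WT library given H2O2 than in every untreated one, by -0.14 ± 0.06 on the log2 scale (unadjusted p = 0.0418, adjusted p = 0.736), and it was called in a fit to the WT groups alone (-0.14, adjusted p = 0.0168), which called 555 of all genes. H2O2 in the S100A16 KD called 0 of 7 beside 0.0134% of all genes, with 1 of 7, PSPC1, at an unadjusted p under 0.05 (0.18 ± 0.08, unadjusted p = 0.0388, adjusted p = 0.723), and DESeq2 again called 0. PSPC1 there was called in a fit to the S100A16 KD groups alone (0.16, adjusted p = 0.00539), which called 801 of all genes. Without the 3 libraries that stood apart, PSPC1 (0.19, adjusted p = 0.0107) and SFPQ (0.15, adjusted p = 0.0318) were called, beside 364 of all genes. Among the others, SFPQ had 1594, 1614 and 1491 CPM in the treated S100A16 KD, against 1440, 1422 and 1405 CPM in the untreated one. In WT cells it had 1746, 1726 and 1739 CPM treated, against 1786, 1826 and 1773 CPM untreated. SFPQ was thus higher in every treated S100A16 KD library and lower in every treated WT library, but its interaction of KD and treatment was not called (0.19 ± 0.11, unadjusted p = 0.104, adjusted p = 0.99957). The interaction called 0 of 7 beside 0.0938% of all genes, with 0 at an unadjusted p under 0.05 and 0 in DESeq2.

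In direct comparisons between untreated KDs, the S100A16 KD called 1 gene higher (MALAT1, 0.67) and 4 lower (NEAT1, PSPC1, RBM14 and MATR3) than the MagoHB KD, beside 44.8% of all genes, 23.2% higher and 21.7% lower. RBM14 had the largest of these decreases, at -1.05 on the log2 scale (adjusted p = 2.27e-09), and SFPQ was not called (-0.0040 ± 0.08 SE, adjusted p = 0.973). Against the hnRNPM KD, the S100A16 KD called 0 higher and 5 lower, beside 48.8% of all genes, 24.6% higher and 24.2% lower. Total counts gave 2 higher and 5 lower there, with MALAT1 and NONO added, beside 30.4% of all genes higher and 17.9% lower under that scaling. On the TMM scale this comparison had SFPQ at -0.43 (adjusted p = 8.54e-05) and NONO uncalled at 0.08 (adjusted p = 0.276). The hnRNPM KD set against the MagoHB KD called 3 higher (NEAT1, MALAT1 and SFPQ) and 3 lower (NONO, PSPC1 and RBM14), beside 44.5% of all genes, 22.3% higher and 22.2% lower. The MALAT1 call (0.40, adjusted p = 0.00789) was lost under total counts (0.30, adjusted p = 0.0662), in a fit to these groups alone (adjusted p = 0.0522) and without library 3 of the hnRNPM KD (0.28, adjusted p = 0.0531). The NONO and PSPC1 calls were lost in the fit to these groups alone (adjusted p = 0.0968 and 0.0839), which called 6893 of all genes, in place of 9963. SFPQ was 1.34-fold higher in the hnRNPM KD there (0.42, adjusted p = 0.000111).

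Other genes of the same compartments were read from lists of paraspeckle proteins, nuclear speckle proteins, nuclear exosome subunits and adaptors, other long noncoding RNAs and neighbours of NEAT1 on chromosome 11. In the untreated S100A16 KD, 22 of 34 other paraspeckle protein genes tested were lower and 2 higher, beside 24.8% and 27.6% of all genes. Their median log2 fold change was -0.35, beside a median of 0.06 over all genes tested. Those with the smallest adjusted p were RBM12, an RNA-binding protein (-1.14, adjusted p = 1.73e-12), and CPSF7 and CPSF6, subunits of the complex that sets the site of cleavage and polyadenylation (-0.62, adjusted p = 1.59e-08, and -0.69, adjusted p = 2.4e-08). RBM7 (0.33, adjusted p = 0.000126) and SS18L1 (0.24, adjusted p = 0.0318) were the 2 that were higher. Of 22 nuclear speckle genes, 20 were lower and 0 higher, with a median of -0.51, led by PNN (-0.68, adjusted p = 4.62e-08), SRRM1 (-0.67, adjusted p = 1.35e-07) and the RNA helicase DDX39B (-0.51, adjusted p = 7.74e-07). Under scaling by total counts these counts became 12 lower and 6 higher for the paraspeckle list and 13 lower and 2 higher for the speckle list, while among all genes tested 3231 were then lower and 9207 higher, in place of 5545 and 6168.

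Nuclear exosome genes, whose products degrade nuclear RNAs, were lower in 15 of 18 cases and higher in 1 in untreated S100A16 KD cells. Their median was -0.50, and among all genes 24.8% were lower and 27.6% higher. PABPN1, the nuclear poly(A)-binding protein, was at -1.07 (adjusted p = 2.31e-10), and the exosome subunits EXOSC7 and EXOSC3 were at -1.21 (adjusted p = 3.4e-10) and -0.89 (adjusted p = 2.28e-09). Under H2O2 the S100A16 KD gave 20 lower and 2 higher of 34 paraspeckle genes, 17 and 0 of 22 speckle genes and 14 and 1 of 18 exosome genes, beside 24.7% of all genes lower and 27.9% higher. In the hnRNPM KD the same lists gave 11 lower and 7 higher (10 and 11 without the 3 libraries that stood apart), 7 and 4, and 9 and 2. Among all genes 23.8% were lower and 25.4% higher there. The paraspeckle and speckle genes called were near the 49.1% called among all genes, so the genes named next are single examples. RBM3, a cold-inducible RNA-binding protein, was lower there (-0.39, adjusted p = 2.71e-06), and AKAP8L was higher (0.32, adjusted p = 2.85e-05). In the MagoHB KD the lists gave 13 lower and 5 higher, 6 and 0, and 9 and 0, beside 22.3% of all genes lower and 23.3% higher. FAM98A was at -0.76 (adjusted p = 3.39e-10), the exosome cofactor C1D at -0.93 (adjusted p = 2.43e-10) and TARDBP, which encodes TDP-43, at 0.42 (adjusted p = 0.000452). Under total counts the hnRNPM KD had 7 lower and 12 higher paraspeckle genes and 5 lower and 6 higher speckle genes. The MagoHB KD had 7 lower and 11 higher paraspeckle genes and 1 lower and 5 higher speckle genes, so which direction was the commoner in these lists depended on the scaling. All genes moved the same way with it, to 4129 lower and 7058 higher in the hnRNPM KD, in place of 5323 and 5676, and to 2789 lower and 8220 higher in the MagoHB KD, in place of 4985 and 5208. Total counts gave 12 lower and 7 higher paraspeckle genes and 12 and 2 speckle genes in the S100A16 KD under H2O2. All genes there moved to 3667 lower and 8558 higher, in place of 5518 and 6241. Exosome genes under total counts were 10 lower and 1 higher in the S100A16 KD with and without H2O2, 8 and 3 in the hnRNPM KD and 6 and 2 in the MagoHB KD. H2O2 called none of these 3 lists' genes in WT cells or in the S100A16 KD.

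**Figure D4:**
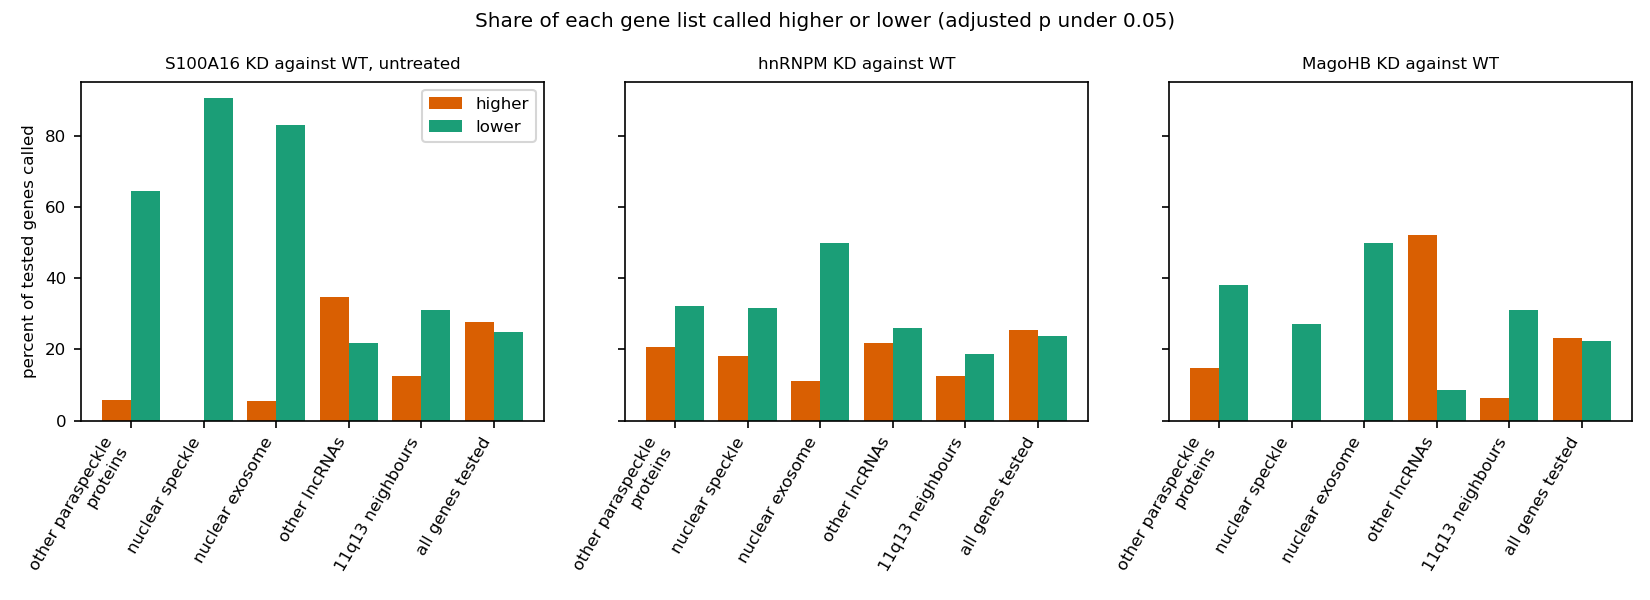
Percent of the tested genes of each list called higher or lower in the 3 untreated KDs against WT, beside the same shares over all genes tested. In the S100A16 KD 20 of 22 nuclear speckle genes and 22 of 34 other paraspeckle genes are lower, beside 24.8% of all genes.

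Of 23 other long noncoding RNAs tested, 8 were higher and 5 lower in untreated S100A16 KD cells, 5 and 6 in the hnRNPM KD and 12 and 2 in the MagoHB KD, or 14 and 4, 7 and 4 and 16 and 2 under total counts. Beside 52.3%, 49.1% and 45.5% of all genes called, the counts in the S100A16 and hnRNPM KDs were near those of all genes, so the RNAs named next are single examples. NORAD, a cytoplasmic RNA that binds Pumilio proteins, was at 538 CPM in the S100A16 KD, against 248 CPM in WT cells (log2 fold change 1.12, adjusted p = 3.22e-06). H19, an imprinted RNA, was lower in all 3 KDs (-3.56 for S100A16, -2.79 for hnRNPM and -1.20 for MagoHB). MEG3, also imprinted, was at 132 CPM in the hnRNPM KD, against 13.9 CPM in WT cells (3.25, adjusted p = 1.57e-05), and was also higher in the S100A16 KD (2.58) and the MagoHB KD (2.98). H2O2 in WT cells raised 1 of the 23, SNHG15, to 23.2 CPM, against 16.8 CPM untreated (0.47, adjusted p = 0.00509).

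Genes beside NEAT1 and MALAT1 on chromosome 11 did not move as one block. Of 16 neighbours tested in untreated S100A16 KD cells, 2 were higher and 5 lower, with a median of -0.02. Among all genes 52.3% were called there, 27.6% higher and 24.8% lower. SLC25A45, whose lower coordinate is at -47.6 kb from the NEAT1 start, was at 0.50 (adjusted p = 0.000813), and LTBP3, at 116 kb on the other side, was at 0.69 (adjusted p = 8.45e-08). POLA2, a subunit of DNA polymerase alpha, was at -0.73 (adjusted p = 0.00029). In the hnRNPM KD 2 neighbours were higher and 3 lower, beside 25.4% and 23.8% of all genes. In the MagoHB KD 1 was higher and 5 lower, beside 23.3% and 22.3%. Under total counts these became 7 and 2 (S100A16 KD), 5 and 2 (hnRNPM KD) and 5 and 2 (MagoHB KD). All genes shifted upward too under that scaling, to 41.1% higher and 14.4% lower, 31.5% and 18.4%, and 36.7% and 12.5%. CMB9-22P13.1, a transcript between NEAT1 and MALAT1 (chr11:65455258-65466720) that was chosen after its values were seen, had 8.80, 7.53 and 7.66 CPM in untreated S100A16 KD cells, 4.22, 3.21 and 3.59 CPM in the hnRNPM KD and 3.605, 3.19 and 2.86 CPM in the MagoHB KD, against 5.77, 4.89 and 4.78 CPM in untreated WT cells. It was higher than WT in the S100A16 KD (0.63, adjusted p = 9.93e-05) and lower in the hnRNPM KD (-0.48, adjusted p = 0.00257) and the MagoHB KD (-0.68, adjusted p = 0.000118), so in the S100A16 and hnRNPM KDs its direction was opposite to that of NEAT1.

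**Figure D5:**
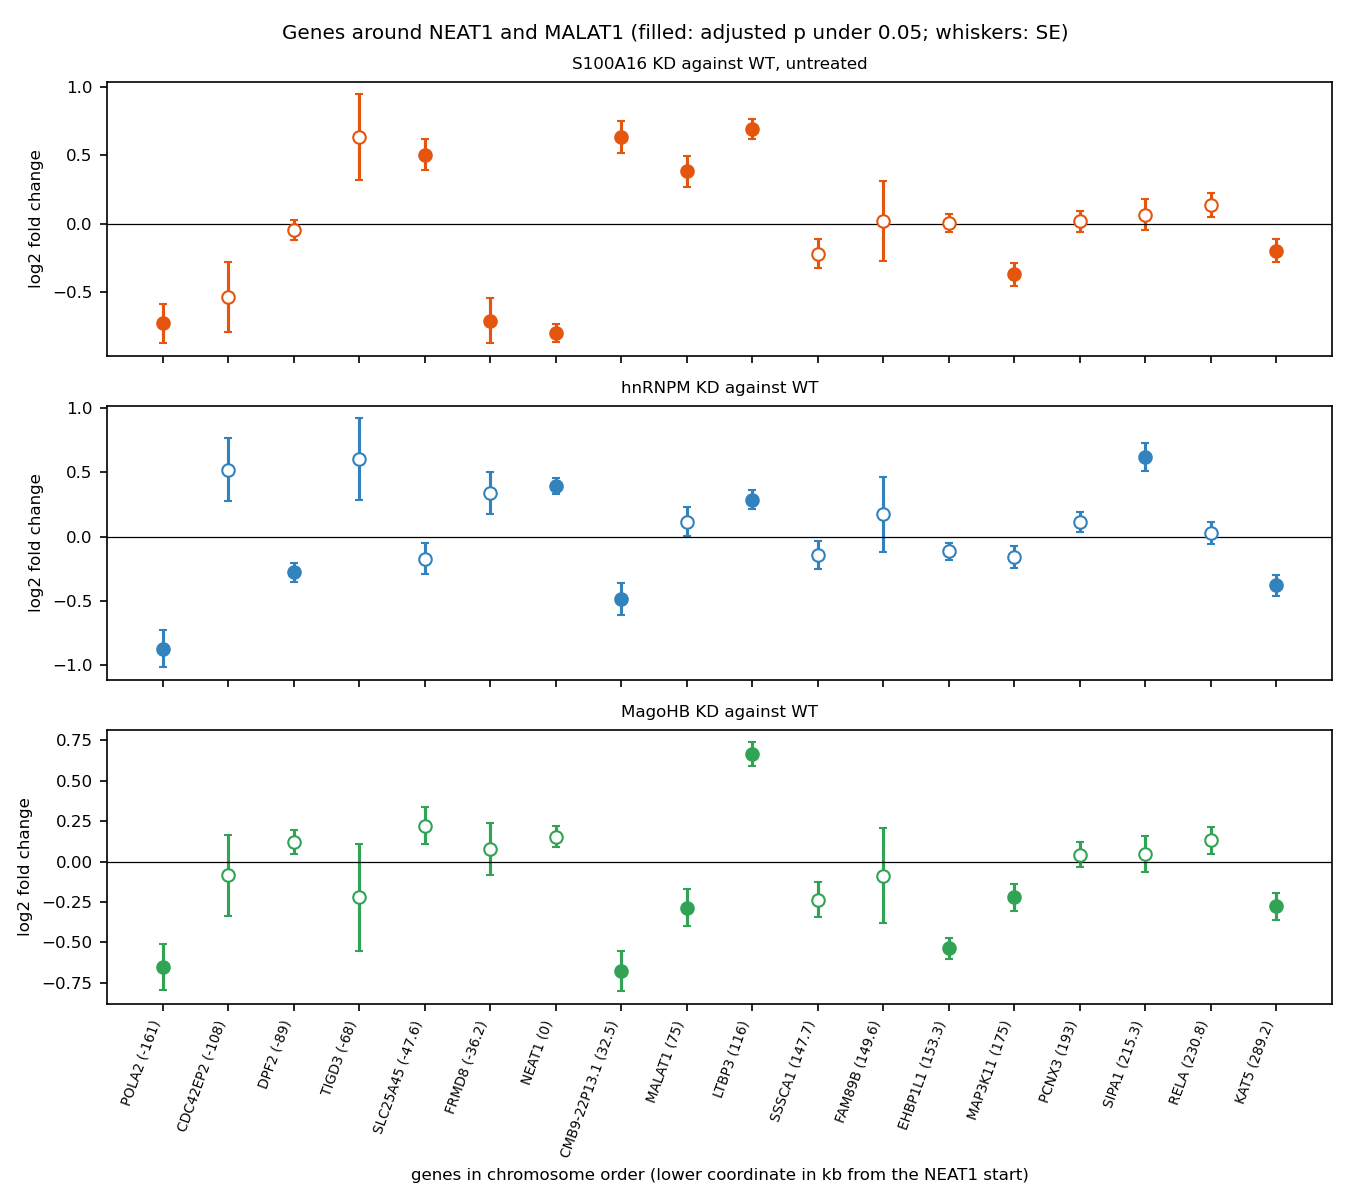
Log2 fold change with its standard error for NEAT1, MALAT1 and the plotted neighbours in chromosome order, with the distance of each gene's lower coordinate from the NEAT1 start in kb, for the 3 untreated KDs against WT; filled points have an adjusted p under 0.05. In the S100A16 KD NEAT1 is at -0.80, CMB9-22P13.1 at 0.63, MALAT1 at 0.38 and LTBP3 at 0.69.

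PSPC1 and RBM14 were both called lower in the S100A16 KD with and without H2O2, and their promoters are shown for the motifs they hold. RefSeq (GRCh38.p14) gave promoter windows for MALAT1, NONO, PSPC1, RBM14 and MATR3, 5 of the 7 genes, with a second window each for MALAT1 and MATR3, and the 250 bases before the RefSeq start are printed on the gene's own strand. The RefSeq starts, base 19782945 for PSPC1 and base 66616630 for RBM14, lie 74 and 48 bases downstream of the starts in the count table, so each stretch runs over the first bases of that table's span. Capitals mark TGACNNNGC, the core of the antioxidant response element, in PSPC1 (chr13:19782946-19783195, minus strand), found on the opposite strand, and CCAAT boxes, read as ATTGG, in RBM14 (chr11:66616380-66616629, plus strand).
PSPC1 upstream: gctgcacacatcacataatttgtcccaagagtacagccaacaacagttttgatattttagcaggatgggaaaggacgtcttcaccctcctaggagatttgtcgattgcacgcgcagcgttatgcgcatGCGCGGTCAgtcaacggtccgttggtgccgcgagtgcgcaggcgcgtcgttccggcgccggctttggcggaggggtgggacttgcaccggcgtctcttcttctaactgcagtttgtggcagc
RBM14 upstream: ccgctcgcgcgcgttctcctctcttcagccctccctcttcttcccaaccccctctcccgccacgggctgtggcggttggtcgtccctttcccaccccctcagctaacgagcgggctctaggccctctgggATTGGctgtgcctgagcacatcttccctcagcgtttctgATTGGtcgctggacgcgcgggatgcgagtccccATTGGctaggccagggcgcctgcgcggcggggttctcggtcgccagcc
The motifs CCAAT (the CCAAT box), TATAAA (the TATA box), GGGCGG (the GC box), TGANTCA (bound by AP-1) and the element core were searched on both strands. TGACNNNGC was in the PSPC1 window, the first MALAT1 window and the first MATR3 window, and in 13.3% of all 35116 windows. CCAAT was found 3 times each in the RBM14 and NONO windows and was in 34.6% of all windows. GGGCGG was found 5 times in the first MALAT1 window and 3 times in the first MATR3 window, beside 45% of all windows. TATAAA was in the second MALAT1 window and in 11.5% of all windows, and TGANTCA, in 7.71% of all windows, was in none of these genes' windows. The PSPC1 and RBM14 windows shared none of these motifs.

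As a description over the 18 libraries, which share groups and depth, the level of NEAT1 was tracked most closely by CALM3 (Pearson r = 0.986 of log2 CPM), SMG6 (r = 0.982) and POLR3D (r = 0.982) among 10039 named genes of at least 5 CPM. MALAT1 was most alike to MLKL (r = 0.936), ARHGEF2 (r = 0.935) and ATP8B1 (r = 0.917), lower values than for NEAT1. SFPQ was most alike to SSB (r = 0.963), LUC7L and GPBP1, and NONO to AP1M2 (r = 0.969), HSPA4 and INCENP. PSPC1 was most alike to CENPC (r = 0.986), KIF15 and SLC25A3, RBM14 to CCDC43 (r = 0.977), EEF2 and EZH1, and MATR3 to SEC61G (r = 0.941), NOL11 and RIOK1. No gene of the set was among the 3 most alike to another of the set.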

How the data were processed

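Read counts per gene, deposited by the authors as whole numbers with exon coordinates and lengths, covered 18 libraries. The deposited RPKM values equalled these counts divided by exon length and library total in 100% of 531539 values above 0 (relative tolerance 0.001). Per the submitters' processing notes, HISAT2 2.2.1, StringTie 2.1.4, SAMtools 1.15.1, DESeq2 1.32.0 and FastQC 0.11.9 were used with GRCh38 (hg38); the sources used here state neither the counting program nor its annotation, strand setting and treatment of reads over several features. Of counts from 1 to 19, 20.5% were odd, so a fit to halved counts was added.

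Libraries were grouped by the labels. Counts were fitted with edgeR 4.0.16 in R 4.3.3 (robust quasi-likelihood F test, TMM scaling, filterByExpr, 1 mean per group over all 18 libraries), with p-values adjusted over 22382 genes and called under 0.05. The fit was tested on simulated data. Ratios of counts were tested by exact permutation. Alternatives were DESeq2 1.42.0, total counts, no filter beyond 1 count, halved counts, the groups compared alone, a replicate block and leaving out each library; leaving out 3 libraries together and the libraries behind the ratios was added after seeing the data. All 7 genes are described; from each list up to 3 called genes per direction with the smallest adjusted p could be named, with 3 most alike genes per member and genes overlapping a member. The genes and lists were chosen with earlier results of these data known. Markers served as checks, and a replication-dependent histone list (6 of 16 genes tested) gave 1 gene higher and 1 lower in the untreated S100A16 KD, 2 and 1 in the hnRNPM KD and 2 and 0 in the MagoHB KD. Intervals and p-values measure the spread between these libraries. Protein sequences were not used here. Values of some single genes are not reported here, although list counts include them.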

Additional observations from a re-analysis of the deposited data

How the results depend on the processing

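Of 952 refits of single genes under the alternatives, 863 kept direction and side of the threshold, 34 gained a call, 24 lost one and 31 turned direction. Of the calls against WT, NEAT1, PSPC1 and RBM14 in the S100A16 KD, with and without H2O2, kept direction and call in every alternative run. So did MALAT1 in the S100A16 KD under H2O2, NEAT1, NONO and PSPC1 in the hnRNPM KD and RBM14 in the MagoHB KD. The cause of the changes under the alternatives was not tested.

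Scaling by total counts turned NONO to 0.00118 (H2O2 in WT), RBM14 to -0.015 (H2O2 in the S100A16 KD), NONO to 0.022 and MATR3 to 0.051 (S100A16 KD untreated), SFPQ to 0.034, NONO to 0.089 and MATR3 to 0.14 (S100A16 KD under H2O2), RBM14 to 0.076 (hnRNPM KD), NONO to 0.13 and PSPC1 to 0.19 (MagoHB KD), and SFPQ to 0.028 (S100A16 KD against MagoHB KD). It called 4, 5 and 5 of the 7 genes in the untreated S100A16, hnRNPM and MagoHB KDs, beside 55.6%, 49.98% and 49.2% of all genes.

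Leaving out 1 library at a time turned direction within these ranges of log2 fold change: for H2O2 in the S100A16 KD, NEAT1 -0.10 to 0.016, MALAT1 -0.15 to 0.056 and RBM14 -0.025 to 0.12; for the interaction, MALAT1 -0.036 to 0.17 and RBM14 -0.090 to 0.053; MALAT1 -0.0095 to 0.21 (hnRNPM KD), PSPC1 -0.086 to 0.10 (MagoHB KD), SFPQ -0.11 to 0.075 (S100A16 KD against MagoHB KD) and MATR3 -0.12 to 0.061 (hnRNPM KD against MagoHB KD). Without the 3 libraries that stand apart, NEAT1 was 0.021 and MALAT1 0.060 for H2O2 in the S100A16 KD, MALAT1 -0.012 in the hnRNPM KD and PSPC1 0.10 in the MagoHB KD, and 2 (SFPQ and PSPC1), 5 and 6 of the 7 genes were called in those comparisons, beside 364, 11527 and 10120 of all genes. Fits to the groups compared alone called 1 gene for H2O2 in WT (NEAT1), 1 for H2O2 in the S100A16 KD (PSPC1) and 3 for the hnRNPM KD against the MagoHB KD, beside 555, 801 and 6893 of all genes. In the last of these MALAT1, NONO and PSPC1 lost their calls, while the calls over all genes fell from 9963.

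The labels do not say that replicate numbers mark a shared batch, and deviations of libraries with the same number correlated at r = -0.53 to 0.62, over 0.1 in 4 of 45 pairs. With the number as a replicate block, NEAT1 in the MagoHB KD was called (0.16, adjusted p = 0.0281) and MALAT1 there was not (-0.29, adjusted p = 0.0603); no other call of the 7 genes changed. RBM14, at 436 to 1264 counts per library, was the member most limited by depth.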
